A study of Homo sapiens with 8 samples.

Results

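Leukocyte surface receptor genes encode the CD antigens and the large receptor families that blood cells carry on their membranes. The members were taken by symbol: CD followed by a number, SIGLEC, LILRA or LILRB, KIR, FCRL, FCGR, CLEC, KLR, MS4A and PTPRC. By this rule 146 of 24256 named genes had at least 1 promoter window in both deposited tables, in 184 of 38157 windows, and each gene was followed by its window with the most reads. Of the 146 members, 138 had enough reads to be tested. The other 8 were CD99 and FCGR1B, which held 0 reads in all 8 libraries, and FCGR1A, FCGR3A, KLRC2, CLEC18A, CLEC18B and CD8B, which held few. CD24, CD151 and MS4A1 are not analysed here.

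The chromatin came from SiHa, an established human line grown from a cervical squamous cell carcinoma. In each well of a transwell device, in which cells can crawl through the pores of a membrane, 750000 cells were seeded, and 10 h later the migrated and the non-migrated fraction were collected. Each fraction gave an input library, made from sonicated chromatin without antibody, and a library in which chromatin carrying histone H3 trimethylated at lysine 9 (H3K9me3) was pulled down. With 2 paired replicate sets this makes 4 groups of 2 libraries: non-migrated input, non-migrated H3K9me3, migrated input and migrated H3K9me3. Both fractions are untreated cells of 1 line, so all groups share its genome. The labels name set 2 as a second biological replicate and the one used for the submitters' analysis. Set 1 was made with another kit and had many duplicate reads, which were removed. No RNA was measured in these libraries, so which members SiHa cells express was not checked.

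H3K9me3 is written by SUV39H1 and related methyltransferases and is bound by HP1 proteins. It marks heterochromatin and some silent genes of other lineages, and active promoters carry little of it. Most members are made by T cells, NK cells, B cells or myeloid cells and are not needed in an epithelial cell. A few, such as the complement inhibitors CD46, CD55 and CD59 and the tetraspanins CD9 and CD63, are on nearly every cell. Many members arose by tandem duplication and still lie side by side, as the MS4A genes on chromosome 11, the SIGLEC, LILR and KIR genes on chromosome 19 and the NK cell lectins on chromosome 12 do.

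The libraries held between 88028 and 1729061 reads in promoter windows. In set 1 the H3K9me3 libraries were shallow, with 164766 reads for non-migrated and 88028 for migrated cells, against 1137376 and 984835 in set 2. The median member window held 4 and 2 H3K9me3 reads in set 1 and 30 and 24 in set 2, and 34 of 146 members had no read in the migrated H3K9me3 library of set 1. Enrichment is given below as log2 H3K9me3 over input, a mean of fractions and sets unless stated, with limma's standard error (SE) and a p-value adjusted over all 36440 windows tested. It is relative to a scaling by trimmed means (TMM), on which the median gene lay at log2 -0.21. A member is called enriched or lower at an adjusted p below 0.05. Single libraries are given in scaled RPM, the reads of a window relative to the TMM-scaled library size. Windows are hg19 positions, most of them from 2000 bases before to 100 bases after a start site, and each bears the name of a gene it overlaps.

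The promoters of 6 called members are printed to show how differently they are built. KLRB1, SIGLEC5 and SIGLEC11 were enriched, and CLEC12A, CD63 and CD46 were lower. The sequences are RefSeq promoters of GRCh38.p14, 250 bases before to 50 bases after the start, on the strand of the gene. Capitals mark each CG, the dinucleotide that DNA methylation acts on. KLRB1 lies at chr12:9607867-9608166, SIGLEC5 at chr19:51630352-51630651, SIGLEC11 at chr19:49961123-49961422, CLEC12A at chr12:9971159-9971458, CD63 at chr12:55728960-55729259 and CD46 at chr1:207751788-207752087. These positions are in another build than the windows and were not mapped between builds.
KLRB1: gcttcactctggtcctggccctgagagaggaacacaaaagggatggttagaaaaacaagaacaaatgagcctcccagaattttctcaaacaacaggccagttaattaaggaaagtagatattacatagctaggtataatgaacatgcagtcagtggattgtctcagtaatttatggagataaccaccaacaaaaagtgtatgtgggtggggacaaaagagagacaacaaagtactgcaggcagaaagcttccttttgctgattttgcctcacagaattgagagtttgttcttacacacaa
SIGLEC5: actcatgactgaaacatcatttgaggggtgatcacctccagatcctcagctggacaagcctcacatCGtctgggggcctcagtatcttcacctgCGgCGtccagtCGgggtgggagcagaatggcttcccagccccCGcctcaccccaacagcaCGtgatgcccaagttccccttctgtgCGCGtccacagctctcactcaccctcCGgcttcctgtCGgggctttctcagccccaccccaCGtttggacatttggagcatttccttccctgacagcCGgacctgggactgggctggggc
SIGLEC11: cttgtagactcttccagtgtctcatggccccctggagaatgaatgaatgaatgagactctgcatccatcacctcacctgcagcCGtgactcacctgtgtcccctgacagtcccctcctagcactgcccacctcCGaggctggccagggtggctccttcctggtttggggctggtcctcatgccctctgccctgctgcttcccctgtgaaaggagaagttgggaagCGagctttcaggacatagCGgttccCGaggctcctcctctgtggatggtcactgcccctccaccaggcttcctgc
CLEC12A: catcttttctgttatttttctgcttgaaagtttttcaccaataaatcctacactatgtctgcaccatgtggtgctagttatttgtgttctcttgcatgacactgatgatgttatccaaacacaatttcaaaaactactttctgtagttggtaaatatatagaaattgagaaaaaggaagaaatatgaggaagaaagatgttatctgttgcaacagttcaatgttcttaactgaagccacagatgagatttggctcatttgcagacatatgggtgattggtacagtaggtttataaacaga
CD63: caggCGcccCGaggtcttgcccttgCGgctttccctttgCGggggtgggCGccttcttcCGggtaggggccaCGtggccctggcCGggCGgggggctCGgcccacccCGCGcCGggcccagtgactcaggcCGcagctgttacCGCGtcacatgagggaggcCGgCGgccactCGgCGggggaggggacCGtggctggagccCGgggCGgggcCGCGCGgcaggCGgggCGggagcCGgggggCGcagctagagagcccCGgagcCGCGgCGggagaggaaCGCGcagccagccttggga
CD46: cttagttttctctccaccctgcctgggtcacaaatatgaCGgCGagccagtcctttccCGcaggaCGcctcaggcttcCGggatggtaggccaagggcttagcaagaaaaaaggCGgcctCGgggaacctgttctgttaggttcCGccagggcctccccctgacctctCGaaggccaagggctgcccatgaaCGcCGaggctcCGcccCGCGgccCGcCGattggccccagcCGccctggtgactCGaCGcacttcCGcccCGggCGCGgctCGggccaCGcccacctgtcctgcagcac
KLRB1 and CLEC12A had 0 CG each, and the windows of those names lay on opposite sides of the test. In hg19, however, the KLRB1 window starts at 9760382 and the CLEC12A window at 10161226, further apart than the 2 printed promoters. The CLEC12A window may therefore not hold the printed promoter, so its call may not belong to that sequence. SIGLEC5 had 12, SIGLEC11 5, CD63 36 and CD46 25.

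Over both sets the share of leukocyte receptor promoters called enriched was near that of all promoters, while the share called lower was smaller. Of 138 members tested, 19 (13.8%) were enriched, against 15.8% of all windows and 18.3% of genes by 1 window each. Lower members numbered 25 (18.1%), against 35.2% of all windows and 32.4% of genes. The members' median was log2 0.11, above the -0.21 of all genes. These shares and medians carry no test of their own. A fit of set 2 alone was chosen after the depth of set 1 was seen, and in it the 2 fractions serve as the replicates. It called 67 of 140 members (47.9%) enriched, against 32.4% of all windows and 36.2% of genes by 1 window each. It called 18 (12.9%) lower, against 31.5% of all windows and 29.8% of genes. There the median was 0.53 for members and 0.12 for all genes. All 19 enriched members were also called in set 2 alone, and 16 of the 25 lower members were. Both fits hold the set 2 libraries, so this overlap is no independent check. The same overlap among all genes was not counted.

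The counts moved with single libraries, and so did the share of all windows called, given in brackets. Without the non-migrated or the migrated input of set 1, 8 members were enriched (9.46% and 7.43% of all windows). Without the migrated H3K9me3 library of set 2 there were 12 (14.5%), without the non-migrated one 30 (18.6%), and when the migrated one of set 1 was dropped there were 43 (25.2%). The lower members fell to 15 without the non-migrated input of set 2 (21.6% of all windows). With the constants of the deposited values in place of TMM, the median of all windows moved from -0.35 to -1.30 and that of the members from 0.11 to -0.85, and 1 member was enriched and 49 were lower. Directions in the text, except those of reads summed over all members, are therefore relative to the TMM centre.

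**Figure D1:**
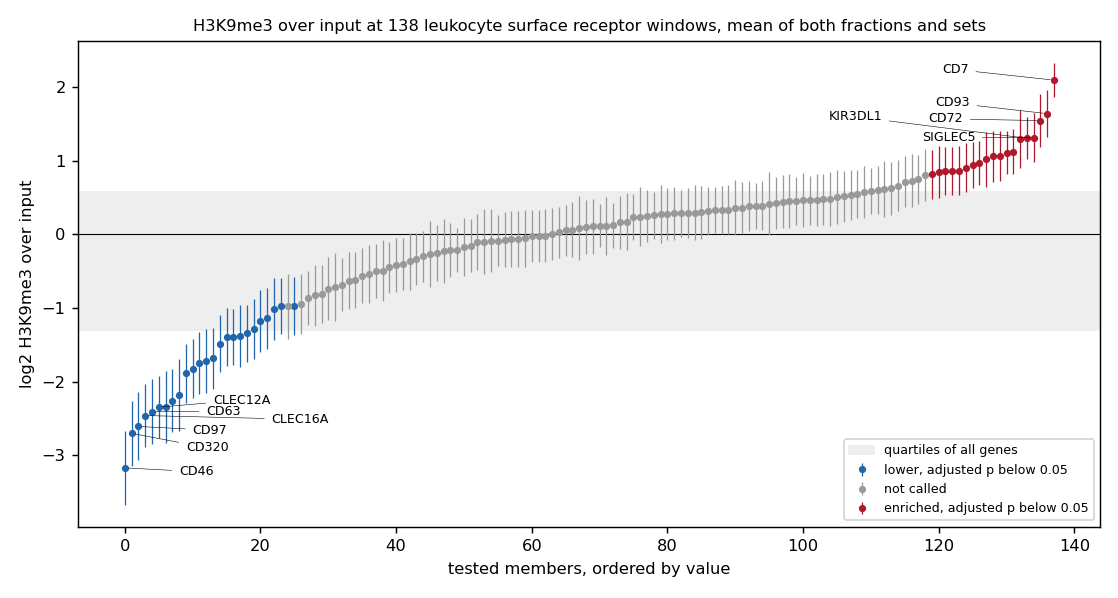
Log2 H3K9me3 over input (vertical axis) of the 138 tested members, ordered by value (horizontal axis); points are limma estimates over both fractions and sets, bars are 1 SE, and the grey band runs from the lower to the upper quartile of all genes. The values run from -3.17 at CD46 to 2.10 at CD7, with 25 lower members in blue and 19 enriched members in red.

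The most enriched member was CD7, an early T and NK cell antigen (chromosome 17, 80275380 to 80277480). In set 1 its input held 33.4 and 27.6 scaled RPM in non-migrated and migrated cells, and H3K9me3 held 118 and 154. In set 2 the input held 122 and 104 and H3K9me3 488 and 470. The H3K9me3 libraries did not overlap the inputs within either set. Enrichment was 4.28-fold (log2 2.10 ± 0.23 SE, adjusted p = 2.81e-08 by limma). The set 2 input at CD7 was above that of 99.6% of windows, at 103 RPM by unscaled library size, while the set 1 input was at 29.8, near the set 1 median of 25.2 for all windows. The part of this difference in the result was not tested.

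Other receptors of T and NK cells were enriched at lower levels. CD5, an inhibitor of T cell receptor signals (chromosome 11, 60867867 to 60869967), had 7.70 and 13.1 scaled RPM in the set 1 inputs and 22.5 and 9.60 in H3K9me3 of non-migrated and migrated cells. In set 2 CD5 had 20.6 and 24.9 in the inputs and 67.9 and 85.3 in H3K9me3. So the migrated H3K9me3 library of set 1, which held 1 read there, was the only one not above its input (log2 1.29 ± 0.40, adjusted p = 0.00677 by limma). The call of CD5 was lost without either set 1 input (adjusted p = 0.0759 and 0.0674). KIR3DL1, an inhibitory NK receptor for HLA class I (chromosome 19, 55233969 to 55236102), had inputs of 38.5 and 37.8 in set 1 and 23.8 and 22.4 in set 2. Its H3K9me3 held 56.3 and 106 in set 1 and 70.5 and 71.2 in set 2, above the input in all 4 pairs (log2 1.31 ± 0.28, adjusted p = 0.000280 by limma). All 5 windows that bear the name KIR3DL1 were enriched, with log2 from 0.85 to 1.40. Their starts are spread from 55233969 to 55359898, so they may be promoters of different KIR genes. Whether any of them holds the promoter of KIR3DL1 itself was not checked. KLRB1, the lectin known as CD161 (log2 1.06 ± 0.34, adjusted p = 0.0102 by limma), had inputs of 15.4 and 31.9 in set 1 and 17.4 and 13.4 in set 2, and H3K9me3 of 39.4, 76.8, 25.0 and 34.5. Its call was lost without the non-migrated input of set 1 (log2 0.81, adjusted p = 0.111).

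Among the sialic acid binding SIGLEC receptors, most of which carry inhibitory motifs, 4 of 13 were enriched and 1 was lower, with a family median of log2 0.29. SIGLEC5 held 12.8 and 16.0 scaled RPM in the set 1 inputs, 56.3 and 48.0 in H3K9me3, 31.5 and 27.5 in the set 2 inputs and 54.5 and 47.5 in H3K9me3. Every H3K9me3 library of the window named SIGLEC5 lay above both inputs of its set (log2 1.31 ± 0.34, adjusted p = 0.00153 by limma). In hg19 this window lies further from that of SIGLEC11 than the 2 printed promoters lie from each other. It may therefore not hold the printed SIGLEC5 promoter. SIGLEC11 had log2 1.12 ± 0.30 (adjusted p = 0.00247 by limma), and its second window had 1.19. SIGLEC9, of neutrophils and monocytes, held 45.0 and 42.9 in the set 2 inputs and 113 and 124 in H3K9me3. In set 1 it held 33.4 and 36.3 in the inputs and 90.1 and 28.8 in H3K9me3, so the migrated cells of set 1 lay below their input (log2 1.11 ± 0.29 over both sets, adjusted p = 0.00199 by limma). Without the migrated H3K9me3 library of set 2 its value was 0.63 (adjusted p = 0.139), and without the non-migrated one of set 1 0.81 (adjusted p = 0.0632). SIGLEC5, SIGLEC11 and KIR3DL1 each share 54.8 to 56.9% of the 20-base words of their promoter with a related gene (SIGLEC14, SIGLEC16 and KIR3DL2), so their values are uncertain.

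The leukocyte immunoglobulin-like receptors LILRA and LILRB, which read HLA class I and other ligands, had 3 of 7 members enriched, 0 lower and a median of log2 0.47. LILRB1, an inhibitory receptor, held 18.0 and 26.1 scaled RPM in the set 1 inputs and 73.2 and 19.2 in H3K9me3. In set 2 it held 35.3 and 31.3 in the inputs and 66.1 and 83.1 in H3K9me3 (log2 1.07 ± 0.34, adjusted p = 0.00930 by limma). As at SIGLEC9, the migrated H3K9me3 library of set 1 was the only one below its input. The call of LILRB1 was lost in 4 of 8 fits without a library, with adjusted p from 0.0765 to 0.289: without either set 1 input, without the non-migrated H3K9me3 library of set 1 and without the migrated one of set 2. LILRB2, the family's lowest, had log2 -0.02 over both sets and 0.89 in set 2 alone (adjusted p = 5.8e-05 by limma).

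The MS4A genes encode membrane proteins that cross the bilayer several times, and 3 of 13 were enriched and none was lower, with a median of log2 0.45. MS4A12, known from colon epithelium, held 25.6 and 16.0 scaled RPM in the set 1 inputs, 50.7 and 19.2 in H3K9me3, 12.8 and 14.1 in the set 2 inputs and 26.8 and 33.5 in H3K9me3. H3K9me3 at MS4A12 was above input in all 4 pairs (log2 1.02 ± 0.37, adjusted p = 0.0220 by limma). Its call was nevertheless lost in 5 of 8 fits without a library (without either set 1 input, the non-migrated H3K9me3 library of set 1, the non-migrated input of set 2 or the migrated H3K9me3 library of set 2), with adjusted p from 0.0752 to 0.253. MS4A6A, a myeloid member, had log2 0.97 ± 0.30 (adjusted p = 0.00747 by limma), lost without the migrated input of set 1 (adjusted p = 0.0940) or the non-migrated H3K9me3 library of set 2 (0.0594). MS4A8B, the lowest, had log2 -0.36, and -0.53 in set 2 alone. In set 2 alone 12 of 13 MS4A genes were enriched, against 36.2% of all genes by 1 window each.

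Of the myeloid receptors listed, 2 of 12 were enriched, 2 were lower and the median was log2 0.44. CD93, a C-type lectin-like protein of monocytes and endothelium (chromosome 20, 23066877 to 23068977), held 12.8 and 27.6 scaled RPM in the set 1 inputs and 33.8 and 86.4 in H3K9me3, and 31.5, 28.1, 92.9 and 132 in set 2. Each H3K9me3 value of CD93 was above both inputs of its set (log2 1.64 ± 0.32, adjusted p = 8.45e-05 by limma). CD163, the haemoglobin scavenger receptor of macrophages, had log2 0.86 ± 0.33 (adjusted p = 0.0267 by limma). Its call was lost without either set 1 input or the migrated H3K9me3 library of set 2 (adjusted p from 0.103 to 0.141). CD33, a myeloid SIGLEC, had log2 0.46 over both sets and 0.90 in set 2 alone (adjusted p = 0.00025), and CD300E, an activating receptor of monocytes, 0.81 and 1.27 (adjusted p = 3.1e-05). CD14, the lipopolysaccharide co-receptor, held 30.8 and 31.9 in the set 1 inputs, 16.9 and 0 in H3K9me3, 27.0 and 25.6 in the set 2 inputs and 8.93 and 6.47 in H3K9me3. It was lower in all 4 pairs (log2 -1.75 ± 0.42, adjusted p = 0.000731 by limma).

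Of the B cell and antigen presenting cell genes, 1 of 12 was enriched and 1 lower, with a median of log2 -0.22. CD72, a B cell co-receptor, had the third highest value of all members (log2 1.55 ± 0.36, adjusted p = 0.000571 by limma), but in a window on the strand opposite to the gene (chromosome 9, 35640511 to 35642611). It held 10.3 and 16.0 scaled RPM in the set 1 inputs and 33.8 and 115 in H3K9me3, and 22.5, 22.4, 41.1 and 42.1 in set 2. The window on the strand of CD72 (35646707 to 35648807) was lower (log2 -1.42, adjusted p = 0.0101 by limma). CD79A, a chain of the B cell receptor, was the lower member of this list, with log2 -1.29 ± 0.41 (adjusted p = 0.00851 by limma).

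The remaining enriched members, named after their values were seen, were SIGLEC12 (log2 0.95), MS4A2 (0.91), LILRB5 (0.86), LILRB4 (0.84) and CLEC2L (0.82), and the highest lectin of the CLEC family was CLEC3A, of cartilage (0.87). The call of CLEC3A was lost in 5 of 8 fits without a library, with adjusted p from 0.0682 to 0.197: without either set 1 input, the non-migrated H3K9me3 library of set 1, the non-migrated input of set 2 or the migrated H3K9me3 library of set 2. Of the 14 enriched members followed in every such fit, 6 kept the call in all 8 (CD7, CD93, CD72, SIGLEC5, KIR3DL1 and SIGLEC11).

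**Figure D2:**
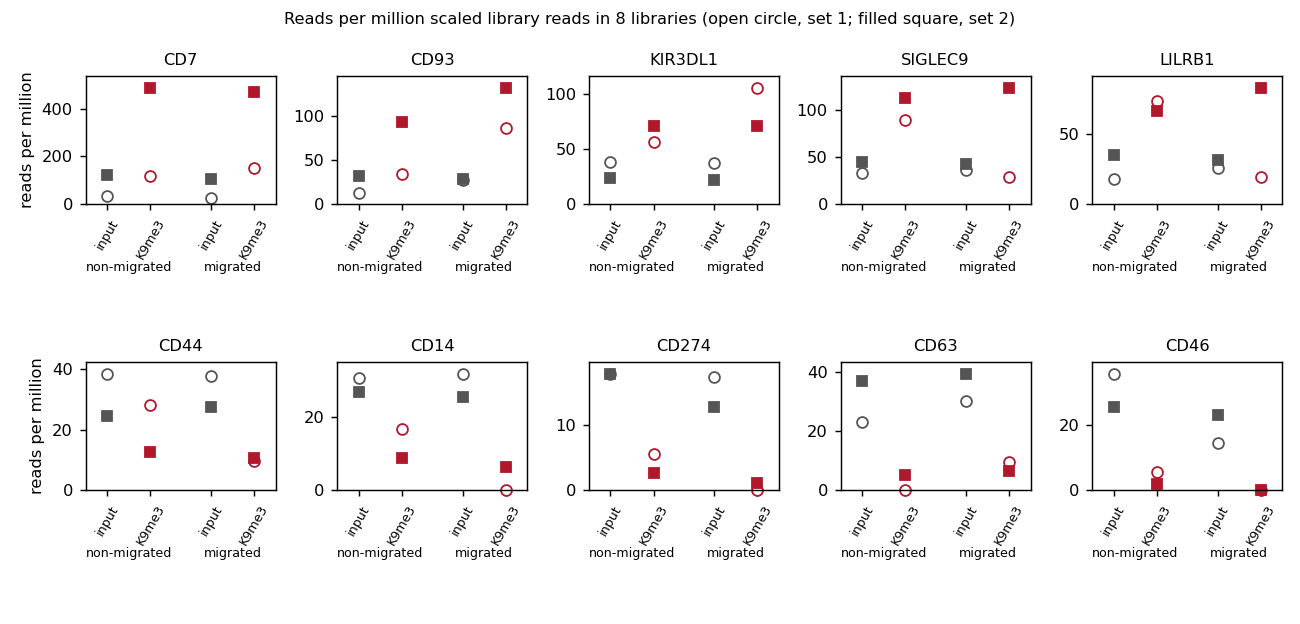
Scaled RPM (vertical axis) in each of the 8 libraries for 5 enriched members (upper row) and 5 lower members (lower row); grey marks input, red H3K9me3, open circles set 1 and filled squares set 2, with non-migrated cells at the left and migrated cells at the right of each panel. In set 2, CD7 rises from 122 and 104 in input to 488 and 470 in H3K9me3, while CD46 drops from 25.7 and 23.0 to 1.79 and 0.

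The members lowest in H3K9me3 were mostly surface proteins of many cell types. Of 16 tested members on a list of such widely expressed proteins, 13 were lower and 0 enriched, with a median of log2 -1.60. The other 122 had 12 lower and 19 enriched and a median of 0.24, and all genes had 32.4% lower and 18.3% enriched. The list was drawn up with earlier results of these data known, so this contrast is a description and no test. In set 2 alone 11 of these 16 were lower and 1 was enriched, against 29.8% and 36.2% of all genes. CD46, which helps to cleave complement on host cells (chromosome 1, 207923402 to 207925502), was the lowest. It held 35.9 and 14.5 scaled RPM in the set 1 inputs and 25.7 and 23.0 in the set 2 inputs, against 5.63, 0, 1.79 and 0 in H3K9me3 (log2 -3.17 ± 0.50, adjusted p = 4.59e-06 by limma). Since both migrated H3K9me3 libraries held 0 reads, the fitted value depends on the 0.5 reads added, and with 3 reads as the floor over the group CD46 was at least 7.02-fold lower than the 20.4 RPM of input there (both by scaled library size). The other complement inhibitors, CD59 (log2 -1.72, adjusted p = 0.00128 by limma) and CD55 (-1.14, adjusted p = 0.0209), were lower too, so 3 of 3 passed. CD59 missed the threshold without the migrated H3K9me3 library of set 1 (log2 -0.86, adjusted p = 0.0721). CD55 was at -0.42 in set 2 alone (adjusted p = 0.27) and missed it in 5 of 8 fits without a library (without any migrated library but the H3K9me3 one of set 2, or without either non-migrated library of set 2; adjusted p from 0.0752 to 0.494).

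The other widely expressed members at the low end were CD320, the transcobalamin receptor, CLEC16A, a regulator of mitophagy, CD63, a lysosomal tetraspanin, CD164, a sialomucin, and CD58, the ligand of CD2. CD63 held 23.1 and 30.5 scaled RPM in the set 1 inputs and 37.3 and 39.7 in the set 2 inputs, against 0, 9.60, 5.36 and 6.47 in H3K9me3 (log2 -2.40 ± 0.44, adjusted p = 3.38e-05 by limma). CLEC16A held 51.3, 46.5, 82.2 and 75.5 in input and 0, 48.0, 13.4 and 9.71 in H3K9me3, so its migrated cells of set 1 lay at the input level while the other 3 pairs were far below it (log2 -2.46 ± 0.43). CD320 had log2 -2.70 (adjusted p = 7.43e-06 by limma), CD164 -2.34 (0.000172) and CD58 -2.26 (4.87e-05). CD97, an adhesion G protein-coupled receptor of leukocytes that is not on the list, had log2 -2.61 ± 0.46, with 8.93 and 2.16 scaled RPM in H3K9me3 of set 2 against 33.4 and 32.6 in input.

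CD274 and CD276, B7 family proteins that dampen T cells, were lower. CD274, known as PD-L1 (chromosome 9, 5448503 to 5450603), held 18.0, 17.4, 18.0 and 12.8 scaled RPM in input and 5.63, 0, 2.68 and 1.08 in H3K9me3 (log2 -2.18 ± 0.49, adjusted p = 0.000380 by limma). CD276, known as B7-H3, held 55.9 and 48.0 in the set 2 inputs against 9.82 and 5.40 in H3K9me3. In set 1 its pairs were close, at 28.2 against 22.5 and 33.4 against 28.8 (log2 -1.48 ± 0.38 over both sets, adjusted p = 0.00169 by limma). The call of CD276 was lost without the migrated input of set 1 or the non-migrated input of set 2 (adjusted p = 0.0563 and 0.103). CD9, a tetraspanin, had log2 -1.34 over both sets but -0.28 in set 2 alone (adjusted p = 0.35), and missed the threshold without either set 2 input (adjusted p = 0.0955 and 0.0543). That window of CD9 lies on the opposite strand. The one on the strand of CD9 was lower too (log2 -1.73, adjusted p = 0.00122 by limma), with 7 and 8 H3K9me3 reads in set 2 against 65 and 57 in input. CD44, the hyaluronan receptor, had -0.98 and -0.84. The window of CD44 lies on the opposite strand, and the one on its own strand had log2 -0.02. CD44 missed the threshold in 6 of 8 fits without a library (all but those without the non-migrated H3K9me3 library of set 1 or the migrated one of set 2), with adjusted p from 0.0912 to 0.272. CD47, the signal that keeps phagocytes from engulfing a cell, was not called: -0.08 over both sets and 0.53 in set 2 alone (adjusted p = 0.03).

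A smaller group of lower members belongs to leukocytes. CD8A, the co-receptor of cytotoxic T cells, held 25.6 and 21.8 scaled RPM in the set 1 inputs and 0 in both H3K9me3 libraries, and 37.3, 32.0, 14.3 and 19.4 in set 2 (log2 -1.88 ± 0.40, adjusted p = 0.000217 by limma). Its value in set 2 alone was -0.80 (adjusted p = 0.018). CLEC12A, an inhibitory lectin of myeloid cells, had 0 H3K9me3 reads in set 1 and 8.04 and 10.8 against 27.6 and 28.1 of input in set 2 (log2 -2.35 ± 0.42, and -1.28 in set 2 alone). Another window of CLEC12A, on the opposite strand, was not called (log2 -0.33, adjusted p = 0.533 by limma). SIGLEC1, the macrophage sialoadhesin, also had 0 H3K9me3 reads in set 1, but 33.0 and 15.1 against 34.1 and 33.3 in set 2. Its log2 of -1.82 over both sets became -0.18 in set 2 alone (adjusted p = 0.56), where it was not called. In all, 9 of the 25 lower members were not called in set 2 alone. Besides SIGLEC1 these were CD9 (log2 -0.28 there), CD55 (-0.42), CD160 (0.05), CLEC2D (-0.34), CLEC4E (-0.21), KLRF2 (-0.18), KLRG2 (-0.52) and CLEC2B, whose value was -0.80 there and -1.01 over both sets. Of the 25 lower members, 17 had 0 reads in the migrated and 7 in the non-migrated H3K9me3 library of set 1. Of the 20 lower members followed in fits without each library, 12 kept the call in all 8. Besides the 5 described above, those that did not were CLEC4E (lost without the non-migrated input of either set, the migrated H3K9me3 library of set 1 or the migrated input of set 2), KLRF2 (without the non-migrated input or migrated H3K9me3 of set 1 or the non-migrated H3K9me3 or migrated input of set 2) and KLRG2 (in 6 fits, all but those without the migrated H3K9me3 library of set 1 or the non-migrated one of set 2). CD68, a lysosomal protein of macrophages named after its value was seen, was lower over both sets (log2 -1.68) and in set 2 alone (-2.57).

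Several defining leukocyte genes passed in neither direction. PTPRC, the phosphatase CD45 of all nucleated blood cells, held 30.8, 30.5, 23.8 and 29.4 scaled RPM in input and 22.5, 19.2, 25.0 and 14.0 in H3K9me3. The 2 ranges overlapped (log2 -0.41 ± 0.36, adjusted p = 0.349 by limma). This window lies on the strand opposite to the gene. The one on the strand of PTPRC had log2 -0.63 and was not called either (adjusted p = 0.223 by limma). CD4, the co-receptor of helper T cells, had log2 -0.86 ± 0.37 and missed the threshold narrowly (adjusted p = 0.0508 by limma). With median-of-ratios size factors CD4 would pass (adjusted p = 0.029). CD3E, a chain of the T cell receptor complex, had log2 -0.45, and CD34, of blood progenitors and endothelium, 0.39 over both sets and 0.83 in set 2 alone (adjusted p = 0.0013).

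By family, the MS4A, SIGLEC, LILR and CD300 genes had the highest medians among families of 3 or more, and the lectins and single CD genes were spread over both sides. In set 2 alone, enriched members numbered 12 of 13 MS4A, 11 of 13 SIGLEC, 6 of 7 LILR and 3 of 3 CD300 genes. Their medians were log2 0.99, 0.90, 0.99 and 1.27. That fit also called more of all genes enriched, 36.2% by 1 window each against 18.3% over both sets. Over both sets the same families had 3, 4, 3 and 0 enriched. The FCRL genes, Fc receptor homologues of B cells, had 0 enriched and 0 lower of 8 over both sets and 2 enriched and 1 lower in set 2 alone, with FCRL4 at 0.58 and FCRL6 at -0.94 as their ends. The CD1 genes, which present lipids to T cells, had 0 of 5 called over both sets (from -0.63 at CD1B to 0.63 at CD1E) and 3 enriched in set 2 alone. The C-type lectins of the CLEC family had 2 enriched and 5 lower of 22, and the killer cell lectins of the KLR family 1 enriched and 2 lower of 7. Remaining CD genes had 5 enriched and 17 lower of 56. No difference between families was tested.

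**Figure D3:**
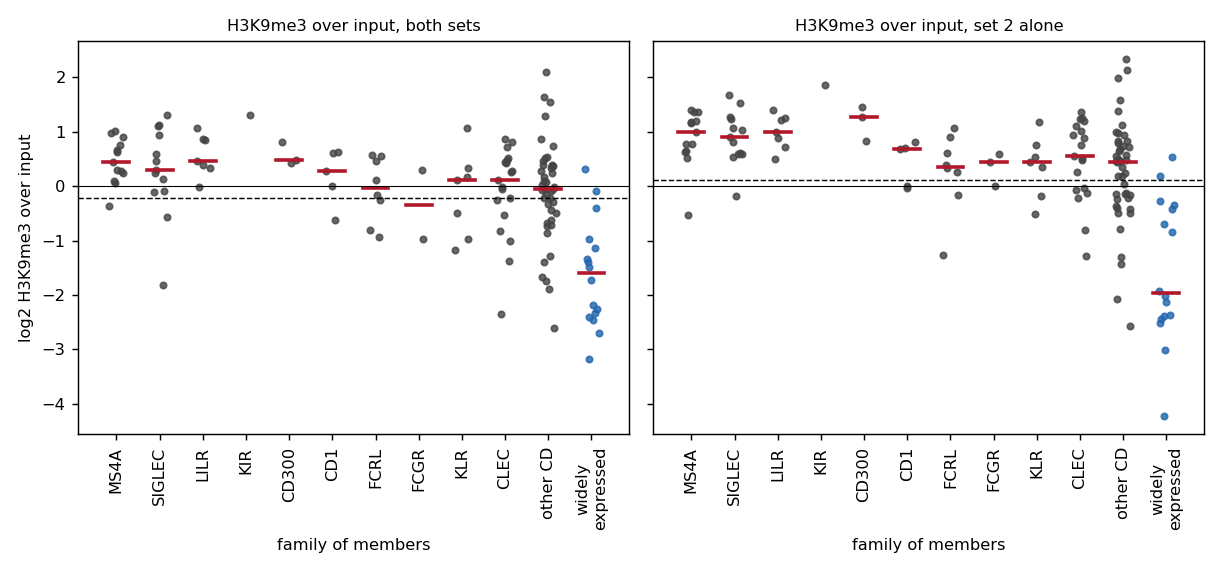
Log2 H3K9me3 over input (vertical axis) of each tested member by family, over both sets (left) and in set 2 alone (right); red bars are medians, the dashed line is the median of all genes (-0.21 and 0.12), and widely expressed members are shown apart in blue and left out of their families. The MS4A, SIGLEC, LILR and CD300 points of set 2 alone lie almost all above 0, and the widely expressed members mostly below.

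Many members lie side by side. Runs of at least 3 member windows within 500 kb of each other were counted as a locus, which gave 12 loci. The LILR and KIR locus (chromosome 19, 54761067 to 55236102) had 4 of 8 members enriched, none lower and a median of log2 0.65. Its 13 other windows had a median of 0.46, with 3 enriched and 3 lower. In the SIGLEC locus (chromosome 19, 51224605 to 52152151), 3 of 9 members were enriched and none lower (median 0.46), while the 34 other windows had 4 enriched, 11 lower and a median of -0.17. In the MS4A locus, which also holds CD5 and CD6 (chromosome 11, 59822060 to 60869967), 4 of 15 members were enriched and none lower (median 0.45). Its 16 other windows had 3 enriched, 9 lower and a median of -1.11. They come from the whole span, CD5 and CD6 included, and how many lie between MS4A genes was not checked. The NK lectin locus (chromosome 12, 9760382 to 10609284) was mixed, with KLRB1 enriched and 4 of 12 lower. Members outside any locus had 6 enriched and 17 lower of 57, with a median of -0.30. On chromosome 19 as a whole, 8 of 29 members (27.6%) were enriched and 3 (10.3%) lower, against 25.1% and 37.1% of all 1280 genes tested there.

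Leukocyte receptor promoters were poor in CG. A RefSeq promoter of GRCh38.p14 was matched by gene name for 111 of 146 members. Whether it lay inside the window tested was not checked. Their median was 5 CG in 300 bases and 52.3% G and C, against 23 and 63.0% in all tested genes that matched. Across the 106 members tested and matched, the CG number and log2 H3K9me3 over input had Spearman's rho of -0.23, and all genes had -0.25. These points share the 8 libraries and their base composition, and the correlation is a description. Of 21 members with 15 CG or more, 13 were lower and 2 enriched (median -1.14), beside 4105 lower and 1004 enriched of 8285 genes (median -0.91). Of 53 members with fewer than 5 CG, 7 were lower and 6 enriched (median 0.28), beside 317 and 351 of 2000 genes (median 0.07). KLRB1 and CLEC12A, with 0 CG each in the RefSeq promoter, are the extremes of that class, though the CLEC12A window may not hold that promoter. GAGGAA, a core that ETS factors such as PU.1 bind, was sought on both strands and occurred in 54 of 111 member promoters (48.6%) and in 27.9% of all promoters in the table. TATAAA, sought likewise, occurred in 11 (9.91%) and in 11.5%. Members with GAGGAA had 9 enriched and 11 lower of 51, and those without it 6 and 11 of 55.

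**Figure D4:**
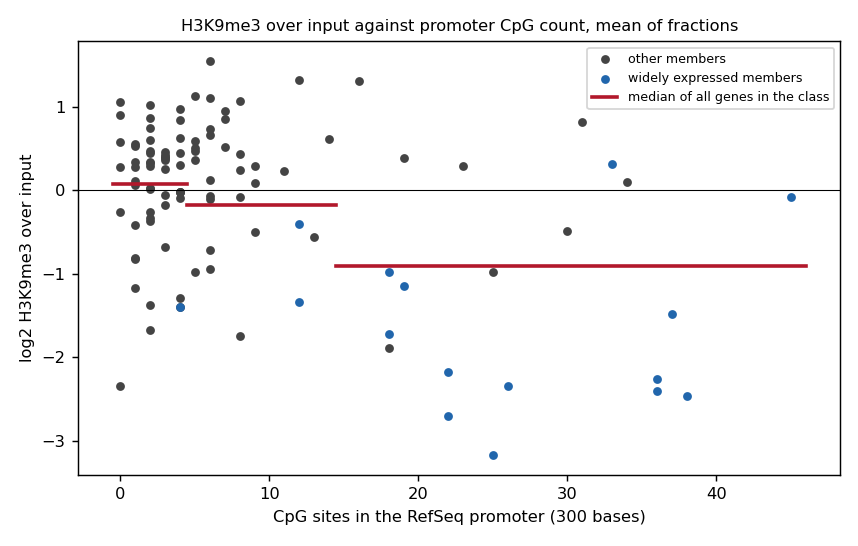
Log2 H3K9me3 over input (vertical axis) against the number of CG dinucleotides in the 300-base RefSeq promoter (horizontal axis) for 106 tested members with a match; blue points are widely expressed members, and red lines are the medians of all genes in the 3 classes. Members with 15 or more CG are mostly below 0, near the class median of -0.91, and those with fewer spread over both sides.

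The window taken for a gene mattered for some members. Of the 111 members with a RefSeq strand, 99 had a window on that strand and 12 on the opposite one, and 31 members had more than 1 window. FCRL3 had log2 0.55 in the window with the most reads and -1.44 in another, CD82, a tetraspanin, 0.32 and -2.32, and FCGR2A, an Fc receptor for IgG, 0.30 and -1.31. Where several windows agreed, as for CD63 (-2.40 and -2.98), CD320 (-2.70 and -1.82), SIGLEC11 and KIR3DL1, both or all were called on the same side.

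The series also asks whether the mark differs between cells that did and did not migrate. In non-migrated cells 9 of 138 members (6.52%) were enriched, against 8.39% of all windows and 10.2% of genes by 1 window each. Lower there were 17 (12.3%), against 23.6% of windows and 21.4% of genes. In migrated cells 13 (9.42%) were enriched, against 12.8% of windows and 15% of genes. Lower there were 21 (15.2%), against 28.4% of windows and 26% of genes. Both fractions shared 8 enriched and 15 lower members. Both contrasts come from the same model, so this overlap is no independent check. The same overlap among all genes was not counted. The counts without 1 library are given with the share of all windows called in brackets. Enriched members of non-migrated cells numbered 1 without the non-migrated input of set 1 (2.41%) or set 2 (1.64%) and 3 without the migrated input of set 1 (3.95%). They numbered 15 without the non-migrated H3K9me3 library (9.54%) or the migrated input (11.1%) of set 2, and 21 and 33 when H3K9me3 of migrated cells was left out of set 2 (13.2%) or set 1 (19.6%). Lower members of non-migrated cells numbered 6 when the non-migrated input of set 1 was dropped (12.3%), 9 when its H3K9me3 partner was (12.5%) and 10 when the set 1 input of migrated cells was (13.6%). Dropping the same 3 kinds of library from set 2 left 3 (4.96%), 11 (19.6%) and 11 (14.1%). In migrated cells, set 1 lacking its non-migrated input gave 6 enriched members (8.84%), lacking its migrated input 2 (4.36%), and lacking its H3K9me3 library of migrated cells 30 (18.0%). For set 2 the same omissions gave 21 (18.2%), 3 (6.67%) and 6 (7.18%). The lower members of migrated cells fell to 5 (12.7%) and 12 (21.4%) with the input or the H3K9me3 library of that fraction left out of set 1, and to 4 (11.6%) with its input left out of set 2.

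For the change between fractions, migrated minus non-migrated after correction for input, limma called 0 of 138 members and 0% of all windows in either direction. The smallest adjusted p was 0.9999, 1 member had an unadjusted p under 0.05 (0.725%) against 3.52% of windows and 3.43% of genes, and a quasi-Poisson model gave 5 such members and called 0. The median SE of the change was 0.61 on the log2 scale, and changes as large as -1.81 at 1 member did not pass at this depth. Without the non-migrated H3K9me3 library of set 2, 1 member was called higher, against 1.78% of all windows, and 3 lower, against 2.06%. The counts were 1 and 3 also without the migrated one, against 2.24% and 2.73%. The member with the unadjusted p under 0.05 was CD1B, which presents lipids to T cells (change -1.81 ± 0.71, unadjusted p = 0.015 by limma). CD1B held 28.1 scaled RPM in non-migrated and 9.60 in migrated H3K9me3 of set 1 and 25.9 and 6.47 in set 2, against inputs of 28.2, 29.0, 21.2 and 24.3. The migrated libraries were the low ones in both sets, with 1 and 6 reads. The next members by p were FCGR2A (change 1.27), FCRL2 (-1.27) and KLRG2 (-1.03), and none passed.

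The values of both fractions were set side by side across members. Across 138 members the log2 enrichment of non-migrated and migrated cells correlated at r = 0.867 in set 2 and 0.496 in set 1, and the 2 sets at 0.646. These correlations run over members of the same libraries and are descriptions. The change had the same sign in both sets for 66 of 138 members, 27 higher and 39 lower in migrated cells. Its quartiles were at -1.09 and 0.41 in set 1 and at -0.47 and 0.28 in set 2.

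**Figure D5:**
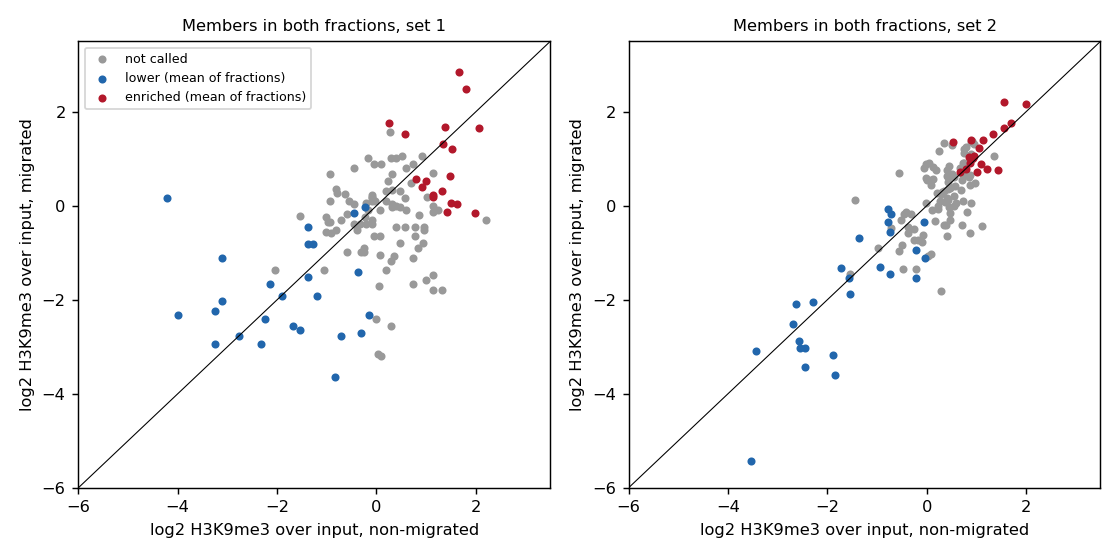
Log2 H3K9me3 over input in migrated cells (vertical axis) against non-migrated cells (horizontal axis) for the 138 tested members, in set 1 (left) and set 2 (right); colours give the call over both sets, and the line marks equal values. Points of set 2 follow the line (r = 0.867), and those of the shallow set 1 scatter more (r = 0.496).

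Summed over all 146 members, reads give a more precise value than single windows. In set 1 the members took 0.375% of the input reads (95% Wilson interval 0.356 to 0.394%) and 0.430% of the H3K9me3 reads (0.399 to 0.463%) of non-migrated cells. In set 2 they took 0.355% (0.346 to 0.363%) and 0.492% (0.479 to 0.505%). In migrated cells the input and H3K9me3 shares were 0.384% (0.370 to 0.399%) and 0.369% (0.331 to 0.411%) in set 1. They were 0.366% (0.357 to 0.376%) and 0.464% (0.451 to 0.478%) in set 2. H3K9me3 over input was thus 1.15 and 1.39 in non-migrated and 0.961 and 1.27 in migrated cells of sets 1 and 2. The migrated ratio divided by the non-migrated one was 0.838 in set 1 (interval 0.724 to 0.969) and 0.913 in set 2 (0.866 to 0.963). Both intervals lay below 1, but they cover counting error only, and 2 sets allow no test over replicates. Without CD7, the member with the most H3K9me3 reads, these ratios were 0.819 and 0.912. All these shares and ratios rest on library totals without TMM scaling. By TMM the median change of the tested members was log2 -0.19 in set 1 and -0.0072 in set 2. For all genes it was -0.05 and -0.02. Whether the pooled ratio stays below 1 on the TMM scale was not tested.

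Other genes that work with these receptors were called on both sides, as genes in general were. Of 26 tested adaptors, kinases and phosphatases that carry receptor signals, 3 (11.5%) were enriched and 7 (26.9%) lower. All genes by 1 window each had 18.3% and 32.4%. The median of the 26 was log2 -0.30, against -0.21 for all genes. PTPN11 (1.13) and VAV3 (1.32) were among the enriched ones, and ZAP70, the kinase of the T cell receptor, was among the lower ones (-1.59 ± 0.40, adjusted p = 0.00140 by limma). Of 37 tested leukocyte surface genes whose symbols fall outside the rule, 8 (21.6%) were enriched and 6 (16.2%) lower, with a median of 0.00. CXCR4, a chemokine receptor, led the enriched ones (log2 2.01 ± 0.37, adjusted p = 4.13e-05 by limma), followed by SLAMF6 (1.26), CCR7 (1.13) and TIGIT (0.99). CSF1R, the receptor that macrophages need for growth, was the lowest (-2.23 ± 0.42, adjusted p = 4.83e-05 by limma).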

How the data were processed

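The 8 libraries were grouped by their titles; the migrated H3K9me3 library of set 1 has another replicate number in its description than in its title, which was used. Per the submitters' processing notes, FastQC 0.11.5, Bowtie2 2.2.9, SAMtools 1.3 and hg19 were used; no counting program is named in the labels. The values the authors deposited are log2 values per the file headers, and equal the log2 of whole reads plus 1 constant per library, with 0 reads entered as 0.9. All (100%) came out whole within 0.01.

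As planned for log2 values, limma 3.58.1 (R 4.3.3) was fitted to log2 of recovered reads plus 0.5 per TMM-scaled library size, with voom weights. Windows needed 2 libraries past the level of 10 reads in a median library and a total of 15 reads, which left 36440. Terms were set, ChIP, fraction, set by ChIP and fraction by ChIP, with 2 residual and 33.0 prior degrees of freedom. Each contrast was fitted as its own coefficient, since combining weighted coefficients approximates the SE, and p-values were adjusted by Benjamini-Hochberg. The series describes the sets as paired, and the deviations from group means that libraries of 1 set share had r = 0.147 (H3K9me3) and 0.469 (input). The set by ChIP term takes up the difference in enrichment between the sets, so the p-values of enriched and lower calls do not measure it. They rest on how far the differences between fractions varied between the 2 sets, moderated by the prior over all windows. Counting intervals cover counting error only. The scripts were tested on simulated data.

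Members and lists were chosen with earlier results of these data known. Named are up to 12 highest and 12 lowest called members whose sign was equal between sets, with 10 reads or more on average, the 4 of smallest p for the change, a fixed list of well-known members, and the ends of each family and locus of 3 or more. Some genes under this rule are not reported here. Tried as alternatives were 2 other scalings, no filter, 2 reads added, no weights, a quasi-Poisson model, no block, another window per gene, each library left out, and set 2 alone (added later).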

Additional observations from a re-analysis of the deposited data

How the results depend on the processing

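Counts of called members changed by over 1.5 times as follows, with the share of all windows called in brackets. Enriched members over both fractions numbered 19 in the main fit (15.8%) and 1 with the deposited constants (0.933%). They numbered 31 without a filter (22.4%), 37 with 2 reads added (24.4%) and 67 in set 2 alone (32.4%). Lower members numbered 25 in the main fit (35.2%) and 49 with the deposited constants (54.0%). In non-migrated cells, enriched members (9) numbered 0 with the deposited constants, 18 without a filter and 21 with 2 reads added, and lower members (17) 10 without a filter and 10 without weights. In migrated cells, enriched members numbered 13 in the main fit (12.8%) and 0 with the deposited constants (0.096%). They numbered 20 without a filter (17.5%) and 22 with 2 reads added (19.3%). Without weights they numbered 7 (8.61%), and without the replicate block 7 (9.95%). Lower members there numbered 21 in the main fit (28.4%) and 54 with the deposited constants (54.6%). They numbered 13 with 2 reads added (19.8%) and 13 without weights (20.6%). Without the replicate block 22 members were enriched (15.8%) and 19 lower (33.8%) over both fractions. In non-migrated cells these were 6 (5.62%) and 12 (18.8%), and 0 changed between fractions. Leaving out 1 library at a time gave 8 (7.43% and 9.46%) to 43 (25.2%) enriched members over both fractions. Lower members ranged there from 15 (21.6%) to 28 (34.7%). In non-migrated cells the ranges were 1 (1.64% and 2.41%) to 33 (19.6%) and 3 (4.96%) to 21 (30.4%). In migrated cells they were 2 (4.36%) to 30 (18.0%) and 4 (11.6%) to 29 (34.8%). For the change they were 0 to 1 (1.78% and 2.24%) higher and 0 to 3 (2.06% and 2.73%) lower. The cause of these shifts was not tested.

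With the deposited constants, 15 named members fell below 0: MS4A12 (-0.003634), FCGR2A (-0.68), FCRL2 (-0.88), CD33 (-0.51), CD34 (-0.56), CD1E (-0.25), CD300E (-0.19), CD300A (-0.47), CLEC3A (-0.11), FCRL4 (-0.31), CD163 (-0.0804), CD209 (-0.35), CD101 (-0.61), CD48 (-0.58) and CD84 (-0.83). The window with the most input reads gave CD72 -1.42 and FCGR2A -1.31 (change -0.93). In set 2 alone CD1B was at 0.002126, CD47 at 0.53, LILRB2 at 0.89, SIGLEC6 at 0.53 and CD84 at -0.16. CD47 was at 0.16 without a filter, 0.13 with 2 reads added and 0.13 without the block. LILRB2 was at 0.26, 0.29 and 0.50 under the same settings and at 0.005734 without weights, and CD84 at -0.17 without the block. When 1 library was left out, log2 ranges crossed 0 for FCGR2A (-0.009946 to 0.81), FCRL2 (-0.16 to 0.58), CD47 (-0.49 to 0.46), CD3E (-0.74 to 0.07837), LILRB2 (-0.14 to 0.47), MS4A8B (-0.57 to 0.24), SIGLEC6 (-1.40 to 0.38) and CD84 (-0.13 to 0.67), and for the change of KLRG2 (-1.25 to 0.40). The pooled ratio of unscaled totals, as a mean of both sets, stayed above 1 in each fraction over its alternatives. That of migrated cells in set 1 was 0.961 and became 1.04 without the widely expressed members. It stayed below 1 with the window of most input reads (0.888), without CD7 (0.920) and for members outside chromosome 19 (0.962).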
